A study of Rattus norvegicus with 71 samples.

Results

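The data described here are brain transcriptomes of 6 rat pups exposed in utero to maternal antibodies against CRMP1 and GDA, set against 12 saline control pups. The members were chosen by label: all samples with the autoantibody label CRMP1+GDA and all samples labelled Control in the title series MAR_C3, which makes 18 of the 71 samples of the whole series and 18 of the 43 of that title series. All animals were wild-type Sprague-Dawley offspring collected at postnatal day 2 (PND2). CRMP1+GDA dams were immunized before pregnancy with peptides of both antigens in Freund's adjuvant, and control dams received the same adjuvant with saline, so that adjuvant exposure was shared by both groups. RNA came from one thin coronal slice per brain that held hippocampus with cortical and subcortical tissue, and poly-A libraries were sequenced; the series' design text instead names frontal cortex and hypothalamus as the regions dissected. The 6 exposed pups (2 males, 4 females) came from 3 litters of 2, and the 12 controls (6 males, 6 females) from 4 litters, of which litter 2 was 4 females and litter 4 was 4 males. Sex and litter therefore cannot be told apart within these 2 control litters. Littermates shared a dam, so that p-values over animals measure in part the spread within litters.

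Collapsin response mediator protein 1 (CRMP1) is a cytosolic phosphoprotein of growing axons that relays semaphorin 3A signals to the cytoskeleton, and it belongs to a family of which the other members are encoded by Dpysl2 to Dpysl5. Guanine deaminase (GDA, cypin) converts guanine to xanthine in purine breakdown, binds the scaffold PSD-95 and promotes dendrite branching by acting on tubulin. Maternal IgG is carried to the fetus by the neonatal Fc receptor, and in maternal autoantibody-related (MAR) autism, maternal IgG that recognizes such fetal brain proteins is the exposure that the rat model copies.

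The total count per library was 26933517 to 35600728 in the exposed group and 26191426 to 34323510 in the controls. The Y-linked gene Eif2s3y matched the recorded sex in all libraries (68.7 CPM or more in males, 1.22 CPM or less in females). Among exposed libraries, the litter 2 female stood apart on the second principal component (13.7% of the variance). That library and the litter 3 male held most of the Hox reads of the exposed group. No pair of libraries agreed within sampling noise (the closest pair had a chi-square of 5.7 per gene), so that all 18 were kept as separate animals. In bulk tissue, fewer cells of a type and less RNA per cell cannot be told apart.

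The promoters of the genes for both antigens are shown because these genes are the named targets of the exposure. They come from the RefSeq table of build GRCr8 (250 bases before to 50 after the gene start), read 5′ to 3′, with GC boxes (GGGCGG, both strands) in capitals. The Gda promoter, at chr1:228408852-228409151 on the minus strand, holds 1 such match, and the Crmp1 promoter, at chr14:77780867-77781166 on the minus strand, holds 6, of which some overlap. A match is present in 33.1% of all 33469 promoters of that table. Neither window has the letters TATAAA on either strand, which 14.2% of the promoters have.
Gda: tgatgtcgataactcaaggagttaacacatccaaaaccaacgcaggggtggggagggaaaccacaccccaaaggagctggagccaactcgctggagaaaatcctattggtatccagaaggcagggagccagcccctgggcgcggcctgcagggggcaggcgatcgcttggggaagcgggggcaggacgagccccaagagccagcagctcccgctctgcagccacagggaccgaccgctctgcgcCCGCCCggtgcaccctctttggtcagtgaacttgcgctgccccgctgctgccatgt
Crmp1: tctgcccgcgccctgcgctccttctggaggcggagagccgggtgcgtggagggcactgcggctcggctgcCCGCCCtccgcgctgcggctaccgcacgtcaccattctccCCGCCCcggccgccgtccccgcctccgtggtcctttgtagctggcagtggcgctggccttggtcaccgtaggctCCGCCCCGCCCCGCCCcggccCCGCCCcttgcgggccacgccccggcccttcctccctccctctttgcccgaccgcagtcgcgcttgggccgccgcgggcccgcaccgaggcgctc

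Whether the antigen genes themselves differed was examined first. Gda (rn7 chromosome 1, 218906852 to 218982360, minus strand) was at 37.5, 49.0 and 56.3 normalised CPM (lowest, median and highest of 6) in exposed brains and at 38.5, 63.8 and 83.8 in the 12 controls. All 6 exposed pups lay below the control median, but 5 of the 6 lay within the control range, and the 4 males of control litter 4 had the highest values of all (68.8 to 83.8). The log2 fold change was -0.36 (SE 0.13, 95% interval -0.64 to -0.08), with an edgeR p of 0.0135 that did not pass after adjustment (adjusted p = 0.956). Without control litter 4 the log2 fold change was -0.22 with an edgeR p of 0.0802, and without exposed litter 2 it was -0.25 with an edgeR p of 0.107. Summed per litter it was -0.35 (edgeR p = 0.0321, adjusted p = 1.00).

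**Figure D1:**
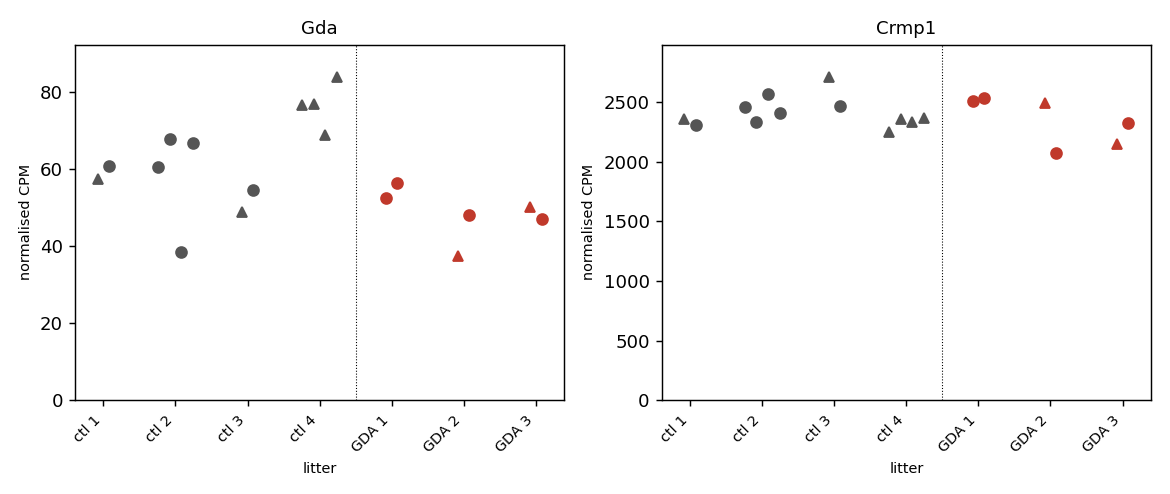
Normalised CPM (y axis, from 0) of Gda and Crmp1 in each of the 18 animals by litter (x axis); grey marks are controls, red marks CRMP1+GDA pups, circles females and triangles males. For Gda the exposed pups span 37.5 to 56.3 and the controls 38.5 to 83.8, and for Crmp1 the groups overlap.

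Crmp1 (rn7 chromosome 14, 73509933 to 73556177, minus strand) was at 2070 to 2530 CPM in exposed and 2250 to 2710 CPM in control brains. The lowest values were the 2 libraries with the most Hox reads, and the groups overlapped. The log2 fold change was -0.04 (SE 0.05, 95% interval -0.15 to 0.06, edgeR adjusted p = 0.999). The other members of the family had log2 fold changes of -0.07 for Dpysl2, 0.02 for Dpysl3, 0.04 for Dpysl4 and -0.02 for Dpysl5, all with an edgeR adjusted p of 0.999. Per exon length, in RPKM, Crmp1 was at 706 ± 59.8 (SD, n = 6) in exposed and 726 ± 37.9 (SD, n = 12) in control brains, while Gda was at 33.2 ± 4.35 (SD, n = 6) and 43.4 ± 8.74 (SD, n = 12). The genes for antigens of the other immunization patterns, Ldha, Ldhb, Stip1 and Eno2, had log2 fold changes between -0.06 and 0.04 and an edgeR adjusted p of 0.999.

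Across all genes, 1 of 12538 tested passed FDR < 0.1 in edgeR (0.00798% of the genes tested), and that gene was Hoxb8. Hoxb8 met the filter on low counts only through exposed libraries, so that its call is given as a count and not as support. In exposed brains 437 genes (3.49%) had a higher and 203 (1.62%) a lower level at an unadjusted p below 0.05, together 5.1% of the genes tested, against the 5% that such a threshold passes when nothing differs. DESeq2 called 10 genes on the same samples, none of them Hoxb8. With counts summed per litter, edgeR called 0 genes, and 80 genes passed p 0.05 in the higher and 39 in the lower direction (0.971% of 12252 genes), and limma with litter as a random effect called 0, with 54 higher and 29 lower (consensus correlation between littermates 0.451). The number of calls moved with single litters. It was 8 without exposed litter 1, 6 without exposed litter 2, 2 without control litter 1, 1 (Pcdhga2) without control litter 4, and 0 without exposed litter 3, control litter 2 or control litter 3. At p under 0.05 the counts were 1147 higher and 1375 lower without exposed litter 2, 672 and 678 without control litter 1, 187 and 172 without control litter 2, and 140 and 182 without exposed litter 3, and 353 were lower without exposed litter 1.

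**Figure D2:**
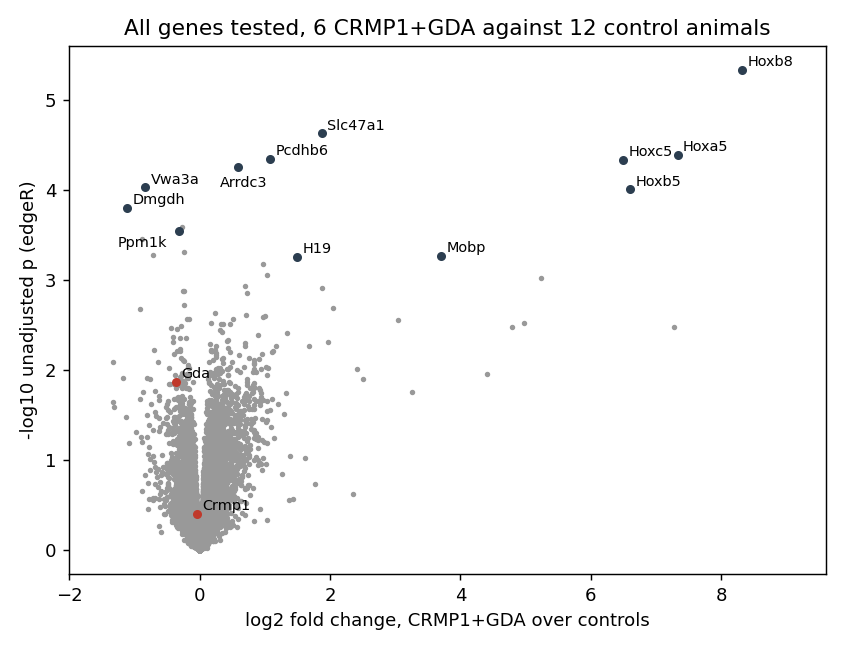
Log2 fold change (x axis, CRMP1+GDA over controls) against the unadjusted edgeR p on a -log10 scale (y axis) for the 12538 genes tested; each point is a gene, the antigen genes are red, and the other labelled genes are dark blue. Hoxb8 at 8.32 is the one gene past FDR < 0.1, and Gda and Crmp1 lie among the bulk of the genes.

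Hox genes code for homeodomain transcription factors that set position along the body axis, and in the brain they are expressed in the hindbrain and the spinal cord. Hoxb8 (rn7 chromosome 10, 81248887 to 81250638, plus strand) was at 12.7 CPM in the litter 2 female, 5.66 in the litter 3 male, 0.971 in the second litter 1 female, 0.0552 in the litter 3 female and 0 in the other 2 exposed pups. The highest control was at 0.065 CPM, and 11 controls were at 0. The group held 575 counts in 6 libraries, against 2 counts in 12, a ratio of 552 with a 95% counting interval of 152 to 4570. The interval takes counts as independent reads and holds no spread between animals. It is too narrow where 2 counts stand for 1 read pair. The fitted log2 fold change of 8.32 (SE 1.30, edgeR adjusted p = 0.0576) depends on the prior count and is no bound. The adjusted p was 0.377 without control litter 1, 0.999 without control litter 2, 0.245 without control litter 3, 0.322 without control litter 4, 0.537 with counts summed per litter, 1 with litter as a random effect in limma and 0.3 in DESeq2. Without exposed litter 1 it was 0.00929, and without exposed litter 2 or 3 Hoxb8 did not pass the filter on low counts.

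Other Hox genes were high in the same 2 libraries. Hoxa5 was at 56.4 CPM in the litter 2 female and 9.55 in the litter 3 male, against 1.47 or less in the other exposed pups and 0.404 or less in controls (edgeR adjusted p = 0.114). Hoxb5 was at 50.1 and 3.01 CPM in these libraries (edgeR adjusted p = 0.152), and Hoxc5 at 3.12 and 1.87 (edgeR adjusted p = 0.114), and the highest controls were at 0.286 and 0.065. Over the whole list of hindbrain and cord Hox genes, 15 of 19 were in the table and 9 passed the filter on low counts, which these 2 libraries alone could meet, so that no count over them is given as support. The summed level of the list was 223 CPM in the litter 2 female, 32.6 in the litter 3 male and 0.0759 to 6.63 in the other exposed pups, against 0 to 8.23 in controls, where the 4 males of litter 4 averaged 3.00. Mobp, a myelin protein of oligodendrocytes, followed the same libraries, at 5.70 and 1.28 CPM against 0.353 or less in controls (log2 fold change 3.71, SE 0.89, edgeR adjusted p = 0.432). For Hoxa5, Hoxb5, Hoxc5 and Mobp every control lay below the 1 CPM of the filter. These genes were tested only through exposed libraries, so that their p-values are not given as support. The part of tissue taken with the slice in these values was not tested. Without these 2 libraries, an alternative chosen after seeing the data, edgeR called 0 genes, with 308 genes at p below 0.05 in the higher and 312 in the lower direction, and Hoxb8, Hoxa5, Hoxb5, Hoxc5 and Mobp no longer passed the filter on low counts.

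**Figure D3:**
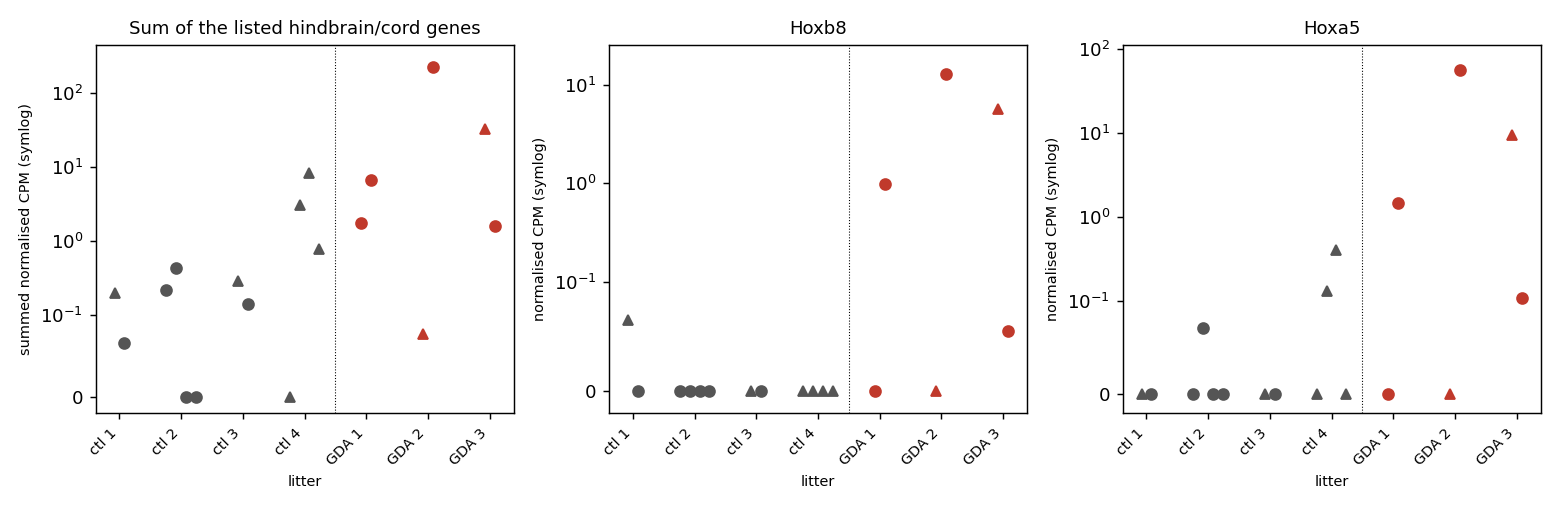
Summed normalised CPM of the hindbrain and cord Hox list, and normalised CPM of Hoxb8 and Hoxa5, in each animal by litter (x axis) on a symmetric log axis that is linear below 0.1; grey marks are controls, red marks CRMP1+GDA pups, circles females and triangles males. The litter 2 female (223 summed CPM) and the litter 3 male (32.6) stand above all other animals.

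Several genes outside the Hox clusters had higher levels in most exposed animals. Slc47a1, a proton antiporter that exports organic cations and is found in meninges, was at 1.31, 2.39 and 4.17 CPM (lowest, median, highest) in exposed and 0.158, 0.719 and 2.27 in control brains. The exposed pups were all above the control median, and 3 were above every control. Its log2 fold change was 1.88 (SE 0.34, edgeR adjusted p = 0.114). Pcdhb6, a clustered protocadherin of neuronal cell-cell recognition, was at 3.07, 6.23 and 10.8 CPM in exposed and 2.11, 3.15 and 3.93 in control brains. Of the exposed pups 5 lay above every control, and the litter 2 male lay within the control range. Its log2 fold change was 1.08 (SE 0.21, edgeR adjusted p = 0.114), and reads of near-identical protocadherin copies may be shared in the counting. Arrdc3, an arrestin-related adaptor of receptor trafficking, was at 24.7, 27.5 and 42.4 CPM against 12.7, 19.6 and 30.2 in controls. The controls of litter 4 overlapped the exposed range and the other 3 control litters stayed below it (log2 fold change 0.59, SE 0.12, edgeR adjusted p = 0.114). H19, an imprinted noncoding RNA, was at 67.6 and 39.1 CPM in the litter 3 pups and 10.7 to 19.3 in the other exposed pups, against 2.54 to 19.8 in controls (log2 fold change 1.50, SE 0.36, edgeR adjusted p = 0.432). Without exposed litter 3 its log2 fold change was 0.68. Tmem106a, a membrane protein gene, was at 2.14 to 3.41 CPM against 0.593 to 2.83 (log2 fold change 0.97, SE 0.24, edgeR adjusted p = 0.48).

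Ppm1k, the mitochondrial phosphatase that activates branched-chain amino acid breakdown, was at 16.2, 19.5 and 21.5 CPM in exposed and 21.6, 24.1 and 28.5 in control brains. It was the 1 gene of 12538 whose animals did not overlap and that was lower in exposed pups (0.00798%), by a margin of 21.5 against 21.6, and 0 genes were so placed in the higher direction (0%). Its log2 fold change was -0.32 (SE 0.07, edgeR adjusted p = 0.319). Vwa3a was at 5.81, 7.63 and 8.94 CPM against 8.82, 12.7 and 18.6 in controls (log2 fold change -0.83, SE 0.17, edgeR adjusted p = 0.152). Dmgdh, the mitochondrial dehydrogenase of dimethylglycine in choline breakdown, was at 1.49, 2.32 and 4.13 CPM against 2.67, 5.67 and 9.41 (log2 fold change -1.11, SE 0.24, edgeR adjusted p = 0.219). For Vwa3a 5 exposed pups lay below every control, and for Dmgdh 4 did.

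The remaining genes at the head of the lower direction had edgeR adjusted p-values of 0.362 to 0.934. Tecta, which codes for tectorin of the inner ear's tectorial membrane, had a log2 fold change of -0.89, and Nsun7, of the RNA methyltransferase family, one of -0.72. Fam81a had a log2 fold change of -0.24, Kcnip2, a subunit of A-type potassium channels, of -0.25, and Trappc2, a trafficking complex subunit, of -0.24. Ddn, the dendritic protein dendrin, was at 101 to 133 CPM against 126 to 161, with 5 exposed pups below every control (log2 fold change -0.24, SE 0.06). Of the 10 genes that DESeq2 called, 9 are named here. Slc47a1, Pcdhb6, Arrdc3, Vwa3a, Dmgdh, Ppm1k, Tecta, Fam81a and Nsun7 passed FDR < 0.1 in it, with adjusted p-values from 0.000867 for Slc47a1 to 0.0628 for Nsun7. Each of these 9 kept its sign in all 7 fits that left out one litter, with an unadjusted edgeR p under 0.05 in each. The genes were picked by their p in these same animals, most of which each fit shares, so that this is no separate support. Without control litter 2 the edgeR adjusted p was 0.999 for each of the 9.

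**Figure D4:**
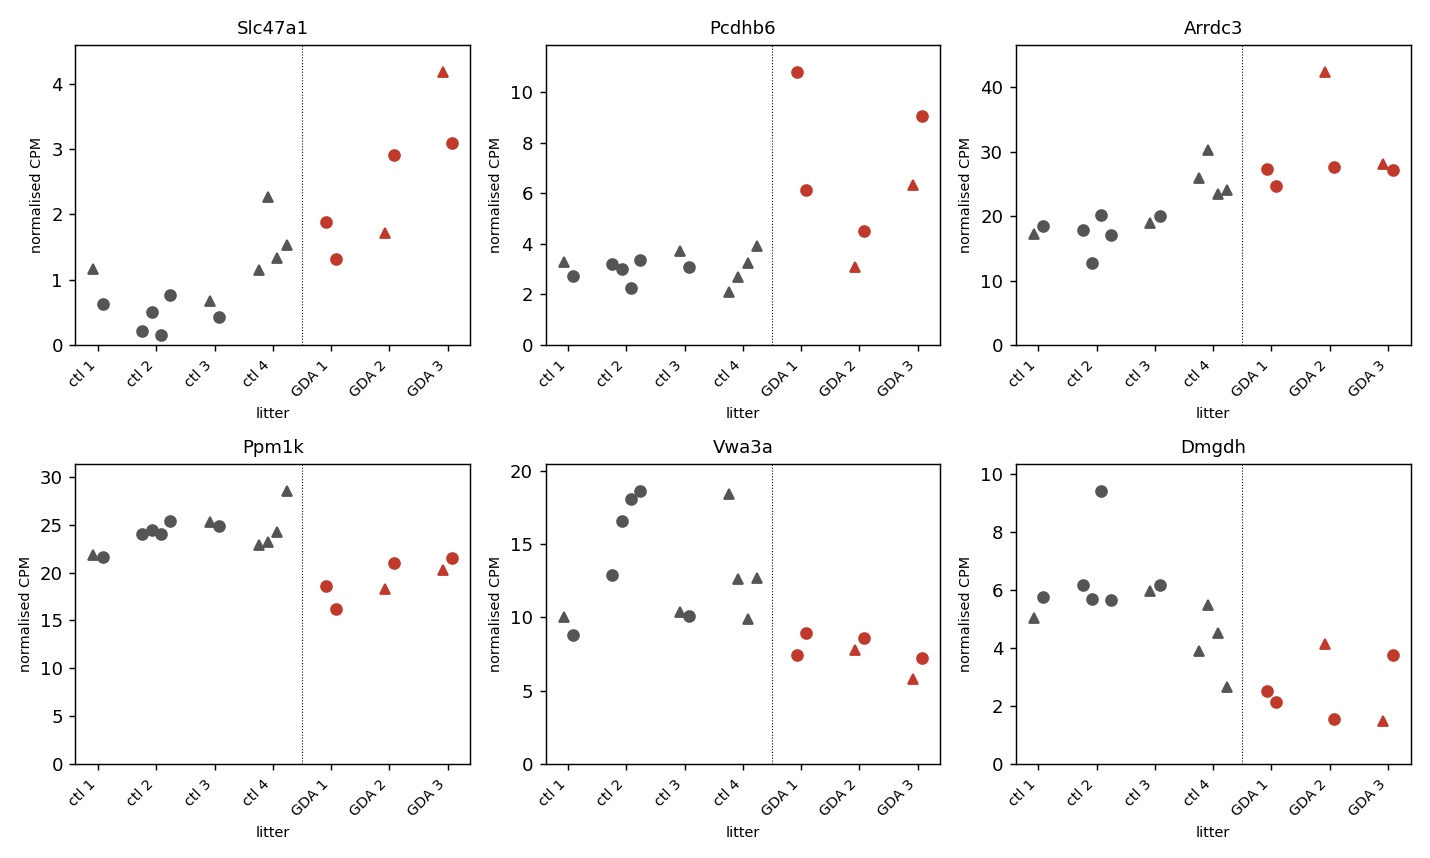
Normalised CPM (y axis, from 0) of Slc47a1, Pcdhb6, Arrdc3, Ppm1k, Vwa3a and Dmgdh in each animal by litter (x axis); grey marks are controls, red marks CRMP1+GDA pups, circles females and triangles males. For Ppm1k all 6 exposed pups lie at or under 21.5 and all controls at or over 21.6, and for Slc47a1, Pcdhb6, Arrdc3, Vwa3a and Dmgdh the groups overlap.

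Guanine metabolism and CRMP signalling were read next, since they surround the antigens. Of 24 tested genes for purine handling around guanine deaminase, 10 were higher and 14 lower (median log2 fold change -0.027, against 0.007 over all genes tested). At p under 0.05 1 was lower, Gda itself (4.17% against 1.62% over all genes). Gmpr2, which reduces GMP to IMP, had a log2 fold change of -0.14 and Nt5e, the ectonucleotidase that makes adenosine, of 0.29, both with an edgeR adjusted p of 0.999. Of 37 tested genes of semaphorin and plexin signalling, the pathway in which CRMP1 acts, 0 were under p 0.05 (median -0.02), with Sema4f at -0.17 and the receptor gene Plxnb2 at 0.10 on the log2 scale. Of 34 genes for microtubule and growth cone proteins 0 were under p 0.05 (median 0.001), where Tuba1c, a tubulin, was at 0.24. Of 29 axon guidance genes 1 was higher at p under 0.05 (3.45% against 3.49% over all genes), the netrin receptor Unc5b. Unc5b was at 10.5, 12.1 and 14.6 CPM against 7.15, 9.58 and 12.2 (log2 fold change 0.36, SE 0.11, edgeR adjusted p = 0.956).

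Of 51 tested genes of the synaptic vesicle and release list, 33 had a lower and 18 a higher level in exposed brains, and 4 were lower and 0 higher at p under 0.05 (7.84% against 1.62% over all genes, median log2 fold change -0.067). They included Cplx2, Doc2a and Syt1, for complexin, a calcium sensor of spontaneous release and synaptotagmin. Cplx2 was at 76.8, 92.5 and 105 CPM against 94.8, 103 and 108 in controls, with 5 exposed pups below every control (log2 fold change -0.19, SE 0.05, edgeR adjusted p = 0.956). Among 28 genes of postsynaptic scaffold and adhesion 23 were lower, with 1 at p under 0.05 (3.57% against 1.62%, median -0.065). This was the kinase gene Camk2a, at 87.6 to 135 CPM against 95.2 to 164. Of 23 glutamate receptor genes 1 was lower at p under 0.05 (4.35% against 1.62%, Gria3, log2 fold change -0.26, list median -0.035). Of 24 genes of GABA receptors, synthesis and chloride transport 1 was (4.17% against 1.62%, list median -0.054). The vesicle count was 12 of 51 without exposed litter 2 or control litter 1, and 10 without exposed litter 1. It was 2 without control litter 2, and 1 without exposed litter 3 or control litter 4. Over all genes the lower count was 1375 without exposed litter 2, 353 without exposed litter 1 and 182 without exposed litter 3. It was 678 without control litter 1, 172 without control litter 2 and 180 without control litter 4, against 203 (1.62%) with all litters. The postsynaptic count was 9 of 28 without exposed litter 2, 4 without control litter 1, and 0 without exposed litter 1 or 3. In females alone the vesicle median was 0.025 and 0 of 51 were under p 0.05, where 522 of all 12396 genes were lower. With litter as a random effect 29 of all 12538 genes were lower at p under 0.05. Of the lists, 1 of 51 vesicle genes and 0 of the postsynaptic, glutamate and GABA receptor genes were. With one litter left out the medians of the last 3 lists crossed 0, reaching 0.002, 0.052 and 0.029.

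Cell cycle genes and genes of neural progenitors lay on the higher side. Of 48 tested cell cycle genes 46 had a higher level, 13 at p under 0.05 (27.1% against 3.49% over all genes, median log2 fold change 0.17), and 0 passed FDR < 0.1. The replication helicase genes Mcm4 (37.3, 42.1 and 58.4 CPM against 31.4, 37.2 and 43.7) and Mcm6 (49.1, 50.4 and 54.2 against 35.9, 43.8 and 53.9) had log2 fold changes of 0.25 and 0.20, with an edgeR adjusted p of 0.956 for both. All 6 exposed pups were above the control median for both genes, and the groups overlapped. Bub1b, of the spindle checkpoint, was at 0.43 and Ccnd3, a G1 cyclin, at 0.26 on the log2 fold change scale. Among 15 tested markers of progenitors and radial glia 12 were higher, 4 at p under 0.05 (26.7% against 3.49%, list median 0.13). Among them were Nes, Hopx and Vim at log2 fold changes of 0.24, 0.33 and 0.40. For Nes, an intermediate filament of progenitors, 4 exposed pups were above every control, the litter 2 female by 76.5 against 76.4 CPM. The litter 1 pups, at 60.7 and 54.4 CPM, lay within the control range. With one litter left out the progenitor count at p under 0.05 ran from 0 to 4. The cell cycle count fell to 1 of 48 without exposed litter 3 and to 3 without control litter 2, was 21 without control litter 1, was 8 without control litter 3, and was 0 with counts summed per litter.

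Markers of meninges and vessels were higher in exposed brains, and they moved with litter. Of 17 tested markers of meninges and fibroblasts 17 were higher, 9 at p under 0.05 (52.9% against 3.49%), with a median log2 fold change of 0.76. Col1a1, a fibrillar collagen, was at 126, 211 and 389 CPM against 39.7, 142 and 243, with both litter 3 pups above every control (log2 fold change 0.76, SE 0.32, edgeR adjusted p = 0.956). Cdh1 (E-cadherin) had a log2 fold change of 0.83, Foxd1, a transcription factor of meningeal cells, of 0.77, and Mgp, a matrix protein, of 0.92. The summed level of the list was 835, 1110 and 1910 CPM (lowest, median, highest) in exposed and 290, 836 and 1390 in control brains, and by litter it averaged 984, 1040 and 1790 in exposed litters 1 to 3 and 1100, 563, 768 and 1100 in control litters 1 to 4. The low control litters were 2 and 3. Without control litter 2, and likewise without exposed litter 3, 0 of the 17 were under p 0.05, at medians of 0.382 and 0.391, while without control litter 3 there were 15. Without the 2 libraries with the most Hox reads 0 of the 17 were under p 0.05 (median 0.64), and with litter as a random effect 0 were (median 0.725). How much tissue at the brain surface was taken with each slice was not tested.

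**Figure D5:**
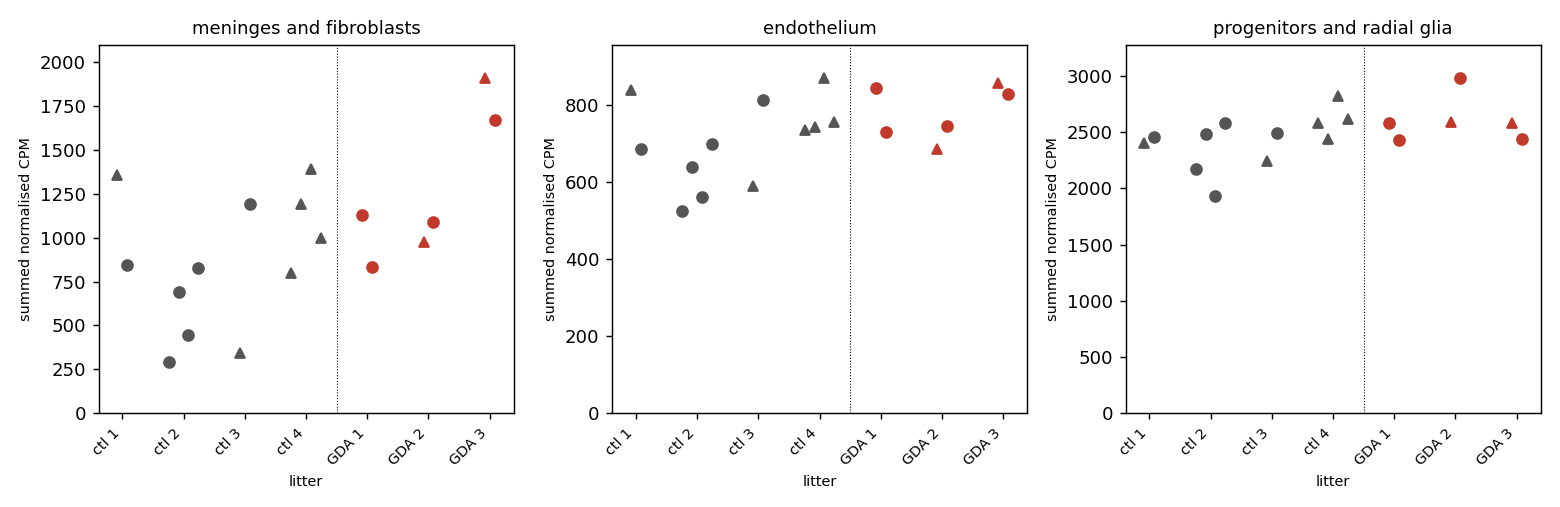
Summed normalised CPM (y axis, from 0) of the marker lists for meninges and fibroblasts, endothelium, and progenitors and radial glia in each animal by litter (x axis); grey marks are controls, red marks CRMP1+GDA pups, circles females and triangles males. The groups overlap in all 3 lists, and control litter 2 averages the lowest sum in each (563, 607 and 2290).

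All 18 tested endothelial markers were higher, 5 at p under 0.05 (27.8% against 3.49%, median 0.228). Of 15 for pericytes and smooth muscle 15 were higher, 2 at p under 0.05 (13.3% against 3.49%, median 0.271). With one litter left out this count ran from 1 to 6. Among 24 genes of VEGF and angiopoietin signalling 4 were higher at p under 0.05 (16.7% against 3.49%) and 0 lower (median 0.129). The VEGF receptor genes Flt1 (log2 fold change 0.27) and Kdr (0.34), the angiopoietin coreceptor Tie1 (0.31) and the endothelial proteoglycan gene Esm1 (1.02) made up these 4. Esm1 was at 3.71 and 1.88 CPM in the litter 3 pups and 0.363 to 1.06 in the other exposed pups, against 0.352 to 1.43 in controls. Without exposed litter 3 the log2 fold change of Esm1 was 0.21. The VEGF count was 1 without control litter 2 or exposed litter 3. The ligand gene Vegfa was at -0.20 (edgeR adjusted p = 0.999). The endothelial cadherin gene Cdh5 was at 0.41, and Kcnj8, a potassium channel subunit of pericytes, was at 3.89, 5.87 and 6.57 CPM against 2.02, 3.69 and 5.07, with 4 exposed pups above every control (log2 fold change 0.70, SE 0.18, edgeR adjusted p = 0.716). Among the 37 tested genes of collagens and extracellular matrix, p was below 0.05 for 6 in the higher direction (16.2% against 3.49%). It was so for 1 in the lower direction (2.7% against 1.62%), at a list median of 0.181, with the fibronectin gene Fn1 at 0.40. With one litter left out these counts ran from 0 to 11 higher and from 0 to 4 lower. Over all genes they ran from 140 to 1147 higher and from 172 to 1375 lower. Fn1 was under an unadjusted edgeR p of 0.05 in 3 of these 7 fits. Endothelial counts under p 0.05 were 0 without control litter 2 and 1 without exposed litter 3. Over all genes the higher count in these 2 fits was 187 and 140, against 437 (3.49%) with all litters. With the meningeal sum as a covariate beside sex, chosen after seeing the data, the median of the 18 endothelial genes was -0.001 and that of the 48 cell cycle genes 0.064.

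Since maternal IgG is the exposure, its receptors were read one by one. All 5 tested genes of the IgG receptors and FcRn list were higher (median log2 fold change 0.414), 1 at p under 0.05 (20% against 3.49% over all genes). Fcer1g, the shared signalling chain of Fc receptors, was at 3.92, 5.96 and 7.07 CPM against 1.79, 3.63 and 6.18 (log2 fold change 0.54, SE 0.20, edgeR adjusted p = 0.956). The neonatal Fc receptor gene Fcgrt was at 0.41 (SE 0.27), the low-affinity receptor genes Fcgr3a and Fcgr2a at 0.55 and 0.26, and the cytosolic antibody receptor gene Trim21 at 0.26, with an edgeR adjusted p of 0.999 for each. The log2 fold change of Fcgrt was 0.06 without control litter 2, 0.09 without exposed litter 3, 0.71 without exposed litter 2 and -0.12 with the meningeal sum as a covariate, and the list median ran from 0.16 without control litter 2 to 0.717 without exposed litter 2. The list's count at p under 0.05 was 0 without control litter 2, exposed litter 1 or exposed litter 3. It was 2 without exposed litter 2 and 3 without control litter 1. Over all genes the higher count was 187, 403, 140, 1147 and 672, in that order, against 437 (3.49%) with all litters. Of 23 tested markers of microglia and complement 22 were higher, 2 at p under 0.05 (8.7% against 3.49% over all genes, list median 0.433). These 2 were Aif1 and Mrc1, at log2 fold changes of 0.43 and 0.65. The summed level of that list was 146 to 192 CPM in exposed and 103 to 202 CPM in control brains, and without control litter 2 the median was 0.096 and 0 were under p 0.05, as without control litter 3. The count was 11 without control litter 1, 6 without exposed litter 2, 4 without control litter 4, and 1 without exposed litter 1 or 3. Over all genes 414 were higher at p under 0.05 without control litter 3 and 470 without control litter 4.

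Of 28 genes for the cytokines, chemokines and growth factors of the protein panel, 4 were tested, since the other 24 did not pass the filter on low counts. Egf was at -0.33, Cx3cl1 (fractalkine) at -0.13, Vegfa at -0.20 and Il18 at 0.03 in log2 fold change, and 0 were under p 0.05 (edgeR adjusted p = 0.999 for each). Among 28 genes of interferon response and antigen presentation p was below 0.05 for 4 in the higher and 0 in the lower direction (14.3% against 3.49% over all genes, median 0.087). These were Ifi27 (18.1, 22.3 and 24.1 CPM against 6.94, 11.6 and 27.6), Tapbp, Tap2 and Ifi44, with log2 fold changes of 0.59, 0.27, 0.34 and 0.34. The interferon count was 0 without exposed litter 3 (median 0.006) and 1 without exposed litter 1. It was 2 without control litter 2, 3 or 4, and 8 without exposed litter 2 (median 0.206). Over all genes the higher count was 403, 1147 and 140 without exposed litters 1, 2 and 3. It was 672, 187, 414 and 470 without control litters 1, 2, 3 and 4, against 437 (3.49%) with all litters. Of 32 genes of the unfolded protein response and chaperones 3 were higher at p under 0.05 (9.38% against 3.49%, median 0.05), Atf6 at 0.20, Calr, a lectin chaperone, at 0.17 and the small heat shock gene Hspb1 at 0.48. Of 14 CREB factors and coactivators 2 were, Creb3l2 at 0.47 and Creb3l1 at 0.36 (14.3% against 3.49%, median 0.038). With one litter left out the first of these counts ran from 0 to 6 (0 without control litter 3 or exposed litter 1, 1 without control litter 2 or exposed litter 3, 6 without exposed litter 2, and 5 without control litter 1 or 4), and the CREB count from 0 without exposed litter 3 to 3, with 1 without control litter 2 or exposed litter 2. The CREB median was -0.06 without exposed litter 2.

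Some lists followed single libraries. Pomc, the precursor of melanocortin peptides made in the hypothalamus and pituitary, was at 75.5 CPM in the second litter 1 female and 0.986 to 4.50 in the other exposed pups, against 1.11 to 5.98 in controls (log2 fold change 2.5, SE 0.90, edgeR adjusted p = 0.956). Without exposed litter 1 it was -0.06. Of 16 pineal and photoreceptor genes 7 passed the filter on low counts, some through exposed libraries alone, so that no count over them is given as support. The litter 3 male held Tph1, the serotonin synthesis enzyme of the pineal, at 29.5 CPM (0.0669 to 0.663 in the other exposed pups, 0.231 to 1.65 in controls) and Aipl1 at 4.50 CPM. The summed choroid plexus level was 469 to 2810 CPM in exposed and 204 to 3330 CPM in control brains, with 0 of 17 markers under p 0.05, and the erythroid sum was 1120 to 2000 CPM against 486 to 2140. The part of these tissues in the other results was not tested.

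Whether CRMP1+GDA differed from other patterns of the same title series was tested by direct contrasts in a fit of all 43 samples. Against CRMP1+CRMP2 (8 pups of 4 litters), with which it shares the CRMP1 antigen, edgeR called 0 of 12738 genes at FDR < 0.1 (0%). At p under 0.05 918 were higher and 951 lower in CRMP1+GDA, together above the 5% that such a threshold passes when nothing differs. Limma with litter as a random effect called 0, with 418 and 494. Among the genes with the smallest p were Arl10 (log2 difference 0.28, SE 0.06) and Slc25a30 (-0.38, SE 0.09), both with an edgeR adjusted p of 0.303. Against STIP1+NSE (8 pups of 4 litters), which shares no antigen with it, edgeR called 0 genes (0%). There p was below 0.05 for 259 of the 12738 genes in the higher and 299 in the lower direction, together below that 5%. Limma with litter as a random effect called 0, with 67 and 125. Here the smallest p were those of Car7, a carbonic anhydrase (-1.20, SE 0.28), Pomc (2.48, SE 0.63) and St8sia4, a polysialyltransferase (0.36, SE 0.09), with an edgeR adjusted p of 0.948. Pomc was high in a single CRMP1+GDA library, at 75.5 CPM against 0.986 to 4.50 in the other pups of that group. Fitted on these 2 patterns alone, 1 gene was called, Vwa3a (log2 difference -0.81, edgeR adjusted p = 0.0226).

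The antigen genes and some leading genes are given side by side for the patterns, which share their controls, in CPM scaled over all 43 samples. Gda was at 48.6 ± 6.65 CPM (SD, n = 6) in CRMP1+GDA, 50.8 ± 18.6 (SD, n = 8) in CRMP1+CRMP2, 59.7 ± 10 (SD, n = 9) in LDHA/B+CRMP1+STIP1, 63.8 ± 13.0 (SD, n = 12) in controls and 75.3 ± 30.5 (SD, n = 8) in STIP1+NSE. Neighbours in this order overlapped. The difference of Gda from STIP1+NSE was -0.65 (SE 0.22, edgeR adjusted p = 0.957) and from CRMP1+CRMP2 -0.10 (SE 0.22, edgeR adjusted p = 0.832). Crmp1 differed by -0.08 (SE 0.07) and -0.03 (SE 0.07) from these patterns. Hoxb8 reads were also present in other exposed groups, at up to 9.64 CPM in LDHA/B+CRMP1+STIP1, 1.51 in CRMP1+CRMP2 and 0.922 in STIP1+NSE. Arrdc3 was at 29.5 ± 5.99 CPM (SD, n = 6) in CRMP1+GDA and at means of 22.1 to 23.9 in the other 3 exposed groups. Its difference was 0.34 (SE 0.14, edgeR adjusted p = 0.316) from CRMP1+CRMP2 and 0.43 (SE 0.14, edgeR adjusted p = 0.957) from STIP1+NSE. Some genes moved alike in the other patterns against the shared controls. The log2 fold change of Slc47a1 was 1.65 in CRMP1+GDA, 0.96 in CRMP1+CRMP2, 0.85 in STIP1+NSE and 0.86 in LDHA/B+CRMP1+STIP1. In the same order Col1a1 was at 0.74, 0.78, 0.55 and 0.32, and Kdr at 0.321, 0.330, 0.265 and 0.202. Vwa3a was at -0.79, 0.03, -0.01 and -0.16.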

How the data were processed

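RNA-seq of 71 PND2 rat brains was deposited as one table of whole-number read counts per gene, made by the authors with STAR 2.5.4b on build rn7 and featureCounts, without normalization. The other deposited column, exon length in bases, was used for RPKM. The deposited table holds 17494 genes, and 0 columns were left unmapped. Multi-mapping rules were not given in the sources used here. Of counts from 1 to 9 in the 18 samples, 74.2% were even, so that 2 counts may stand for 1 read pair. Groups, litters and sexes come from the labels, and the title series was taken as the batch. The study also assigned collection cohorts, which the labels do not give, so that no cohort term was used here and the part of cohort was not tested.

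Genes were kept above 1 CPM in 2 or more libraries and tested with edgeR 4.0.16 in R 4.3.3 (TMM, robust quasi-likelihood, sex as covariate, Benjamini-Hochberg, FDR < 0.1). All p-values and adjusted p-values are edgeR's unless another tool is named. Normalised CPM uses TMM-scaled library sizes. Alternatives used DESeq2 1.42.0, limma 3.58.1 (voom with litter as a random effect), sva 3.50.0, litter sums, other filters and scalings, and each litter left out. The edgeR fit was tested on simulated data with independent animals and no litter effect. That test therefore does not bear on the spread between litters. Principal components used log2 CPM with a prior count of 2. Gene identities on rn7 come from the deposited table, and promoters from RefSeq (GRCr8).

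Genes named are the antigen and CRMP genes, the 10 with the smallest p in each direction, up to 4 leading members of each list (all members of lists of 8 or fewer), non-overlapping genes leading the litter fit, and the 3 leading genes of each direct contrast, and not all of these are printed, since some genes are not reported here. Other Hox genes and the sex marker Eif2s3y were added after their values were seen. The members and lists were chosen with earlier results of these data known. Counting intervals cover counting error only.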

Additional observations from a re-analysis of the deposited data

Results flagged for a closer look

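Some values of single exposed animals lay far from the other 5, by Dixon's criterion for 6 animals. This held for 11 of the 88 named genes and for 2 of the 20 summed marker lists. The criterion passes about 1 in 20 groups of normally spread values. Many named genes were chosen by their p in these same animals, so that the counts cannot be compared with that rate. In the litter 2 female, Hoxa5 was at 56.4 CPM (0 to 9.55 in the other 5), Hoxb5 at 50.1 CPM (0 to 3.01) and Mobp at 5.70 CPM (0.0737 to 1.28). The summed hindbrain and cord Hox level of that animal was 223 CPM (0.0759 to 32.6 in the others), its summed progenitor and radial glia level was 2980 CPM (2430 to 2590), and its Trappc2 was low, at 39.0 CPM (50.5 to 57.2). The litter 2 male was high in Arrdc3 (42.4 CPM, others 24.7 to 28.1), Mcm4 (58.4 CPM, others 37.3 to 44.7) and Vegfa (138 CPM, others 77.7 to 90.4). The first litter 1 female was high in Tap2 (5.31 CPM, others 3.68 to 4.28), and the second in Pomc (75.5 CPM, others 0.986 to 4.50). The litter 3 male was high in Aipl1 (4.50 CPM, others 0.166 to 1.16) and Tph1 (29.5 CPM, others 0.0669 to 0.663). These flags compare exposed pups alone. Of the flagged values only that of Vegfa lay within the control range, where the highest control was at 160 CPM. For Tap2 the highest control was at 5.23 CPM.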

How the results depend on the processing

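The depth limits what low genes can show, and 24 of the 28 protein panel genes could not be tested. The count of genes called at FDR < 0.1, 1 in edgeR, was 10 in DESeq2 and 5 without the sex term. It was 0 in edgeR with no filter on low counts, with at least 1 CPM in 6 samples, with a surrogate variable, in the fit of 43 samples, with all 24 controls, in females alone, with litter sums, and with counts halved, and 0 in limma with litter as a random effect. It was also 0 under both alternatives chosen after seeing the data, which left out the 2 libraries with the highest Hox sum or added the meningeal sum to sex. Over the fits that left out one litter it ran from 0 to 8. Genes higher at p below 0.05 numbered 437, and 205 with all 24 controls, 80 with litter sums, 54 with litter as a random effect, 147 with the meningeal sum and 140 to 1147 with one litter left out. Genes lower numbered 203, and 350 with no filter, 522 in females alone, 39 with litter sums, 29 with litter as a random effect, 312 without the 2 Hox libraries and 172 to 1375 with one litter left out. The contrast with STIP1+NSE called 1 gene on the samples of both patterns alone. No paired analysis was possible because the replicate numbers only name animals within a group in accession order and no animal or litter belongs to both groups. The study's collection cohorts are not in the labels, and no cohort block was used here. The causes of these changes were not tested.

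Without the 2 libraries with the highest Hox sum, values of opposite sign (log2 fold change) were 0.0178 for Crmp1, 0.0125 for Dpysl5, 0.0205 for Ldhb, -0.0738 for Il18, -0.01 for the microtubule and growth cone proteins list median and -0.026 for the axon guidance list median. With sex and the meningeal sum, values of opposite sign (log2 fold change) were 0.0114 for Crmp1, 0.0841 for Dpysl5 and -0.0231 for Ldha. In that fit they were also -0.117 for Fcgrt, -0.0187 for Mrc1, 0.0228 for Vegfa and -0.292 for Il18. List medians of opposite sign there were 0.046 for semaphorin and plexin signalling, 0.006 for postsynaptic scaffold and adhesion and 0.006 for glutamate receptors. They were also -0.028 for collagens and extracellular matrix, -0.001 for endothelium, -0.024 for erythroid and -0.705 for choroid plexus. The list median of unfolded protein response and chaperones was 0 there. In the fit of 43 samples, values of opposite sign (log2 fold change) were -0.00213 for Dpysl3. With sex and a surrogate variable, values of opposite sign (log2 fold change) were 0.0571 for Dpysl5, -0.0382 for Ldha, -0.0421 for Il18, 0.023 for the semaphorin and plexin signalling list median, 0.024 for the glutamate receptors list median and -0.299 for the choroid plexus list median. With all 24 controls and a surrogate variable, values of opposite sign (log2 fold change) were 0.0315 for Dpysl5, -0.0949 for Trim21 and -0.155 for Il18. With counts summed per litter, values of opposite sign (log2 fold change) were -0.00299 for Ldha, -0.00772 for Stip1, -0.009 for the microtubule and growth cone proteins list median and -0.07 for the pineal and photoreceptor list median. Without the sex term, values of opposite sign (log2 fold change) were 0.00146 for Ldhb. In females alone, values of opposite sign (log2 fold change) were 0.0972 for Ldhb, -0.00187 for Stip1, 0.0459 for Eno2, 0.0142 for Cx3cl1, -0.003 for the axon guidance list median, 0.025 for the synaptic vesicle and release list median, 0.039 for the GABA receptors, synthesis and chloride transport list median, -0.02 for the CREB factors and coactivators list median and -0.239 for the pineal and photoreceptor list median. With litter as a random effect, values of opposite sign (log2 fold change) were -0.008 for the microtubule and growth cone proteins list median. With each litter left out in turn, log2 fold changes that crossed 0 ran from -0.0277 to 0.0459 for Dpysl3, -0.0567 to 0.0906 for Dpysl4, -0.111 to 0.0553 for Dpysl5, -0.0842 to 0.132 for Ldha, -0.124 to 0.109 for Ldhb, -0.0181 to 0.0735 for Stip1, -0.017 to 0.162 for Plxnb2, -0.531 to 0.0201 for Egf, -0.408 to 0.106 for Vegfa and -0.127 to 0.312 for Il18. Over the same fits they ran from -0.0594 to 3.27 for Pomc and -0.085 to 0.033 for the semaphorin and plexin signalling list median. List medians ran from -0.047 to 0.024 for microtubule and growth cone proteins and -0.087 to 0.078 for axon guidance. Those for postsynaptic scaffold and adhesion ran from -0.108 to 0.002, and those for glutamate receptors from -0.121 to 0.052. Those for GABA receptors, synthesis and chloride transport ran from -0.078 to 0.029. Those for the cytokines, chemokines and growth factors of the protein panel ran from -0.24 to 0.06. Those for unfolded protein response and chaperones reached 0, at 0 to 0.082. Those for CREB factors and coactivators ran from -0.06 to 0.148. Over the same fits they ran from -0.019 to 0.578 for the erythroid list median, -0.058 to 1.476 for the pineal and photoreceptor list median and -0.595 to 0.67 for the choroid plexus list median.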
